A study of Homo sapiens with 30 samples.

Results

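The genes described here are the 78 entries whose symbols name a protein of the mitochondrial ribosome. They were chosen by symbol alone (MRPL or MRPS, a number and at most one letter from A to C) from the 24895 entries of the expression table. Of these, 49 carry large subunit symbols (MRPL) and 29 carry small subunit symbols (MRPS). The data come from MiaPaCa2 and PANC-1, established human pancreatic cancer cell lines, each transfected with 1 of 5 siRNAs. The siRNAs were directed against DDX60L, MYEOV, KCNN4 or S100A16 (groups siDDX60L, siMYEOV, siKCNN4 and siS100A16), or were a control siRNA (siControl). KCNN4 is a calcium-activated potassium channel, S100A16 a calcium-binding protein, DDX60L a helicase-like protein and MYEOV a gene named for its overexpression in myeloma. Each of the 10 groups had 3 libraries, and both lines received the same 5 transfections. Every value is a bulk level in FPKM, reads assigned to a gene scaled by its length and by the size of the library, so that a change in RNA per cell and a change in the mix of cells cannot be told apart. Nothing in the labels ties the 3 libraries of a group to separate cultures, so p-values measure the spread between libraries, which may be partly technical.

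Mitochondria keep their own ribosome, which makes the membrane subunits of the respiratory chain that mitochondrial DNA encodes. Its proteins are all encoded in the nucleus, made in the cytosol and imported, and they are assembled on mitochondrial ribosomal RNA with the help of GTPases and RNA-modifying enzymes. Some are descendants of bacterial ribosomal proteins, and others are found only in mitochondria. The symbols are historical. MRPS18A and MRPS30 are proteins of the large subunit, MRPL58 (also called ICT1) is a peptidyl-tRNA hydrolase that became part of the large subunit, and MRPS36 is now assigned to the alpha-ketoglutarate dehydrogenase complex.

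All 78 genes were found in the GENCODE annotation lifted to GRCh37, the build named in the submitters' processing notes, on 21 chromosomes. Of these, 37 overlapped another protein-coding gene and 27 had a protein-coding gene starting within 1000 bases on the other strand. The handling of strand in the counting was not given in the sources used here, so reads from such neighbours cannot be told apart. MRPS24 also shares its locus with the readthrough gene URGCP-MRPS24, which has its own entry.

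The promoter windows of the 4 members called in most siRNA comparisons are shown so that their letters can be read. These members are MRPS33, called in 8, and MRPL22, MRPS34 and MRPL34, called in 5 each. Where the windows lie relative to the start of transcription was not checked, and they may reach into the genes. They are RefSeq windows of 300 bases on GRCh38.p14, 5′ to 3′ on the strand of the gene. The MRPS33 window lies at chr7:141014903-141015202 (minus strand), the MRPL22 window at chr5:154940823-154941122 (plus), the MRPS34 window at chr16:1773085-1773384 (minus) and the MRPL34 window at chr19:17292323-17292622 (plus). MRPS33 has 2 listed windows and MRPL34 has 4, and the one farthest upstream is printed. Capitals mark matches on either strand to GCGCATGC (the core of the NRF1 motif), CCGGAAG (ETS factors, which include GABPA), AAGATGGCG (YY1), GGGCGG (SP1) or CACGTG (E-box).
MRPS33: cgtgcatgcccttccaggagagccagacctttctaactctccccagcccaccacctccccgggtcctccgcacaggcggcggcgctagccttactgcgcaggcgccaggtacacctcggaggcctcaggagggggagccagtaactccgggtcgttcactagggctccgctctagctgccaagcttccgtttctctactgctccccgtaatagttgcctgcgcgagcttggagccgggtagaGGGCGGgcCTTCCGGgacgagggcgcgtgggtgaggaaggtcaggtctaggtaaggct
MRPL22: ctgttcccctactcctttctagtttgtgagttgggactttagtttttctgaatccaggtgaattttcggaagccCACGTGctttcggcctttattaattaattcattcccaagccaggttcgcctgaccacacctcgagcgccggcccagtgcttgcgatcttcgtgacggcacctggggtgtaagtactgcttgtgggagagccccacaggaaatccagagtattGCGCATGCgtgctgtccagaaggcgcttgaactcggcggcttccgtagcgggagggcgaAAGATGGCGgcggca
MRPS34: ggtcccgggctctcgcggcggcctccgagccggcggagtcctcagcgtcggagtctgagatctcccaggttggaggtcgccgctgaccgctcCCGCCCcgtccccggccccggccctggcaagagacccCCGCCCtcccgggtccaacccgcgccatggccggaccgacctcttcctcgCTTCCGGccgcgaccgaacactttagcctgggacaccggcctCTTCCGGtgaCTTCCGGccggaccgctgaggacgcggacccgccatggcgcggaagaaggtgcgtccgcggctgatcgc
MRPL34: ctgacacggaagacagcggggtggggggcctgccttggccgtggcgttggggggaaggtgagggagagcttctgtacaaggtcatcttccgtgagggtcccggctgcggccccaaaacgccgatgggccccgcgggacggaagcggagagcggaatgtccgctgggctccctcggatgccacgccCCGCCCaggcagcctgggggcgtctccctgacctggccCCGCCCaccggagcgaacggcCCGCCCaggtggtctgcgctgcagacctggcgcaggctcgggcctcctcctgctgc

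The MRPS33 window held 1 SP1 and 1 ETS match, the MRPL22 window 1 E-box, 1 NRF1 and 1 YY1 match, the MRPS34 window 2 SP1 and 3 ETS matches, and the MRPL34 window 3 SP1 matches. The RefSeq table had 85 windows for 69 of the 78 members and 35116 windows of 27305 genes in all. The latter were not limited by expression or gene type, whereas all members were expressed in both lines. The ETS letters stood in 38.8% of member windows, against 10.3% of all windows. The YY1 letters stood in 15.3%, against 1.75%, and the NRF1 letters in 7.06%, against 3.05%. The SP1 letters stood in 60% against 45%, and the E-box in 10.6% against 7.26%. Windows of one gene can overlap, the last letters of an ETS match can be the first letters of a YY1 match, and a match is a description of the sequence only.

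The targeted genes were first checked in every library. DDX60L was at 0.187, 0.233 and 0.226 FPKM in siDDX60L MiaPaCa2 libraries, against 1.91, 1.7 and 2.24 FPKM under siControl, and at 0.516, 0.861 and 0.371 FPKM in PANC-1, against 1.06, 1.35 and 1.52 FPKM. MYEOV averaged 9.94 ± 0.77 FPKM in siMYEOV PANC-1 cells and 23.9 ± 0.97 FPKM under siControl (SD, n = 3 each). In MiaPaCa2 it averaged 0.171 ± 0.018 FPKM after siMYEOV and 0.803 ± 0.16 FPKM under siControl, below the level tested. KCNN4 averaged 22.4 ± 0.97 FPKM after siKCNN4 and 61.5 ± 0.82 FPKM under siControl in MiaPaCa2, and 7.15 ± 0.7 FPKM after siKCNN4 and 15.1 ± 1.2 FPKM under siControl in PANC-1. S100A16 averaged 3.22 ± 0.65 FPKM after siS100A16 and 65 ± 6.1 FPKM under siControl in MiaPaCa2, and 7.01 ± 0.61 FPKM after siS100A16 and 38.6 ± 1.7 FPKM under siControl in PANC-1. Libraries of a group correlated at 0.9929 to 0.9951 on the log2(FPKM + 1) scale over all 24895 entries, including those too low to be tested. Both lines expressed the keratins KRT8, KRT18 and KRT19, but in MiaPaCa2 the epithelial genes EPCAM and CDH1 were listed at 0 in 11 and 13 of 15 libraries. The pancreatic enzyme and hormone genes PRSS1, AMY2A, CELA3A, CPA1, INS and GCG together summed to at most 0.0624 FPKM in a MiaPaCa2 library and 0.57 FPKM in a PANC-1 library.

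Every member was expressed in both lines, and all 78 passed the minimum mean of 1 FPKM in each. The median member stood at 31.5 FPKM in MiaPaCa2 and 25.2 FPKM in PANC-1, averaged over the 15 libraries of a line. Of the 78, 51 in MiaPaCa2 and 45 in PANC-1 lay above the 75th percentile of the genes tested. In MiaPaCa2 the highest large subunit levels were those of MRPL37 (124 FPKM), MRPL12 (92 FPKM), MRPL51 (91.4 FPKM) and MRPL4 (88 FPKM), and the lowest were those of MRPL42 (9.74 FPKM) and MRPL48 (7.86 FPKM). MRPL12 forms the stalk that recruits elongation factors. Among MRPS symbols in MiaPaCa2, MRPS2 averaged 100 FPKM, MRPS24 91.4 FPKM, MRPS34 67.2 FPKM and MRPS6 60.2 FPKM, while MRPS28 averaged 9.28 FPKM and MRPS11 6.84 FPKM. In PANC-1 the order differed. MRPS12, a protein of the decoding site, led with 167 FPKM, followed by MRPL12 (91.7 FPKM), MRPL37 (79.7 FPKM), MRPS24 (79.3 FPKM), MRPS6 (73 FPKM), MRPL20 (65 FPKM), MRPS5 (64.9 FPKM) and MRPL28 (60.5 FPKM). At the low end in PANC-1 were MRPS31 (9.2 FPKM), MRPS11 (7.39 FPKM), MRPL54 (5.91 FPKM) and MRPL50 (3.38 FPKM). Neighbours in these orders often overlapped over the 15 libraries. In MiaPaCa2, for example, MRPL12 ranged over 68.3 to 117 FPKM and MRPL51 over 70.1 to 111 FPKM.

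The lines were first compared under siControl. Genes were called when limma's moderated test gave a Benjamini-Hochberg adjusted p below 0.05 and a log2 difference of at least 0.5 on the log2(FPKM + 1) scale. On this rule 7 members were higher and 30 were lower in PANC-1 than in MiaPaCa2. Of all 11084 genes tested 49.1% were called, 25.9% higher and 23.2% lower, so that the share of members called was near the background and the share called lower was above it. The median difference was -0.32 over members and 0.02 over all genes. Of the 29 MRPL members with bacterial counterparts 3 were higher and 11 lower, and of the 20 large subunit members found only in mitochondria 1 was higher and 10 were lower. Among the 16 MRPS members with bacterial counterparts 3 were higher and 2 lower, and among the 10 found only in mitochondria none was higher and 4 were lower.

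MRPS2 and MRPS12, both descendants of bacterial small subunit proteins, differed in opposite directions. MRPS12 was at 171, 187 and 165 FPKM in PANC-1, against 35.3, 39.5 and 40.6 FPKM in MiaPaCa2 (log2 difference 2.15 ± 0.052 SE, adjusted p = 1.1e-20). MRPS2 was at 27.8, 24.1 and 25.8 FPKM in PANC-1, against 108, 124 and 119 FPKM in MiaPaCa2 (-2.13 ± 0.067, adjusted p = 1.3e-18). The libraries of the lines did not overlap for either gene. The other members called higher in PANC-1 were MRPL27 (1.25 ± 0.082), MRPS10 (0.73 ± 0.049), MRPL23 (0.71 ± 0.082), MRPL48 (0.59 ± 0.09), MRPL17 (0.58 ± 0.093) and MRPS28 (0.59 ± 0.086), whose call was lost without PANC-1 siControl replicate 2 (0.49). MRPL1, of the mobile stalk near the exit site of tRNA, was at 3.19, 4.14 and 4.81 FPKM in PANC-1, against 17.9, 17.8 and 18.1 FPKM in MiaPaCa2 (-1.92 ± 0.1). MRPL50 was at 3.24, 2.86 and 3.11 FPKM in PANC-1, against 12.6, 11.8 and 12 FPKM in MiaPaCa2 (-1.69 ± 0.071). MRPL39 (-1.49 ± 0.08) and MRPL4, which lines the exit tunnel (-1.44 ± 0.084), completed the 5 lowest. All other calls in this paragraph held without any single library.

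**Figure D1:**
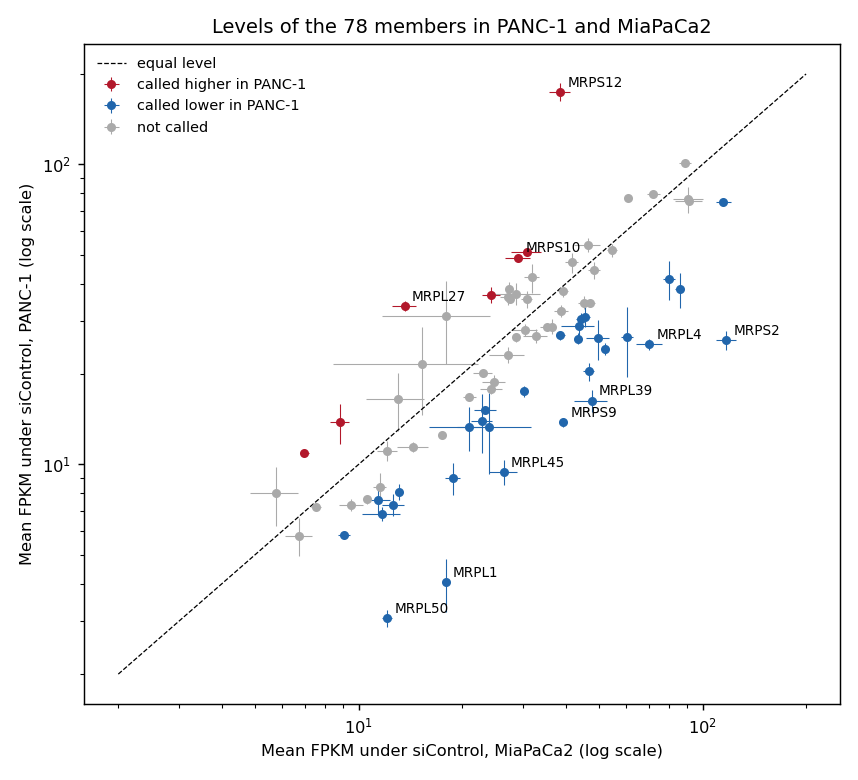
Mean level of each member under siControl in PANC-1 (y, FPKM, log scale) and MiaPaCa2 (x, FPKM, log scale), with SD over 3 libraries as bars and the dashed line at equal levels. MRPS12 lies farthest above the line and MRPS2, MRPL1 and MRPL50 farthest below it, and 30 members are called lower in PANC-1 against 7 called higher.

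The summed level of the 78 members was next compared between each siRNA and siControl. In MiaPaCa2 the sum was 3107 ± 30 FPKM after siDDX60L, 3135 ± 100 after siMYEOV, 2499 ± 9.5 after siKCNN4 and 3068 ± 60 after siS100A16, against 2750 ± 39 FPKM under siControl (SD, n = 3 each). In PANC-1 it was 2439 ± 22, 2605 ± 12, 2168 ± 8.4 and 2609 ± 45 FPKM in the same order, against 2335 ± 26 FPKM under siControl. In both lines the 3 siKCNN4 libraries lay below every other library, and the libraries of the other 3 siRNAs lay above those of siControl. As a percentage of all FPKM of a library, the members held 0.592 to 0.617% after siDDX60L in PANC-1, against 0.596 to 0.606% under siControl, so that those libraries overlapped on this scale. The 4 comparisons of a line share the same 3 siControl libraries. An exact test of 3 against 3 libraries cannot go below p = 0.1, and none is given for the sum.

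**Figure D2:**
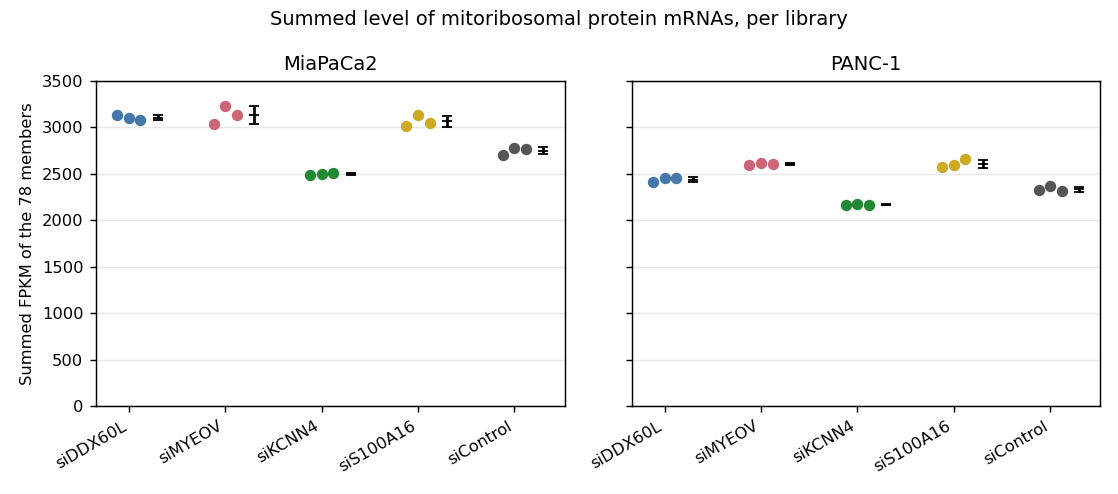
Summed FPKM of the 78 members in each library (points) with the mean and SD of each group (bars) in MiaPaCa2 (left) and PANC-1 (right). siKCNN4 libraries sum to about 2499 FPKM in MiaPaCa2 and 2168 FPKM in PANC-1, below the siControl means of 2750 and 2335 FPKM.

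Single members moved both ways after each siRNA. In MiaPaCa2, siDDX60L gave 6 higher and 2 lower members, against 16.1% of all 11875 genes called (8.77% higher, 7.28% lower). siMYEOV gave 17 higher and 3 lower members, against 26.7% of all genes (16.3% higher, 10.4% lower). siKCNN4 gave 1 higher and 9 lower, against 23.2% (16% higher, 7.23% lower), and siS100A16 gave 13 higher and 6 lower, against 22.1% (12.4% higher, 9.63% lower). In PANC-1, siDDX60L gave 6 higher and 3 lower members, against 17.5% of all 12513 genes (10.2% higher, 7.34% lower). siMYEOV gave 14 higher and 5 lower, against 29.4% (14.3% higher, 15.1% lower). siKCNN4 gave 6 higher and 10 lower, against 26.7% (13.8% higher, 12.9% lower), and siS100A16 gave 18 higher and 6 lower, against 25.4% (16.5% higher, 8.94% lower). The shares of members called were 10.3%, 25.6%, 12.8% and 24.4% in MiaPaCa2 and 11.5%, 24.4%, 20.5% and 30.8% in PANC-1, in the order siDDX60L, siMYEOV, siKCNN4, siS100A16. They were thus below the background after siDDX60L and siKCNN4 and near it otherwise, and the counts are no result about the members as a class. Of the 78 members, 27 were called in no siRNA comparison, 25 only higher, 16 only lower and 10 in both directions. The same counts were not made over all genes, so it is not known whether these are unusual.

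The median member moved by 0.16, 0.25, -0.08 and 0.21 on the log2 scale in MiaPaCa2, against 0.05, 0.11, 0.09 and 0.04 for all genes, again in the order siDDX60L, siMYEOV, siKCNN4, siS100A16. In PANC-1 the member medians were 0.13, 0.25, -0.05 and 0.23, against 0.07, 0.04, 0.02 and 0.09 for all genes. Scaling the libraries by the median of ratios moved the median of all genes to -0.04 for siKCNN4 in MiaPaCa2 and to within 0.02 of 0 in the other 7 comparisons. Under that scaling siMYEOV gave 8 higher and 3 lower members in MiaPaCa2, where the share of higher among all calls was 47.3% in place of 61%. siKCNN4 gave 1 higher and 14 lower there, with 45.7% in place of 68.9%. In PANC-1, siDDX60L gave 5 higher and 4 lower (43.4% in place of 58.1%) and siS100A16 10 higher and 10 lower (46.8% in place of 64.8%). No called member changed direction.

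**Figure D3:**
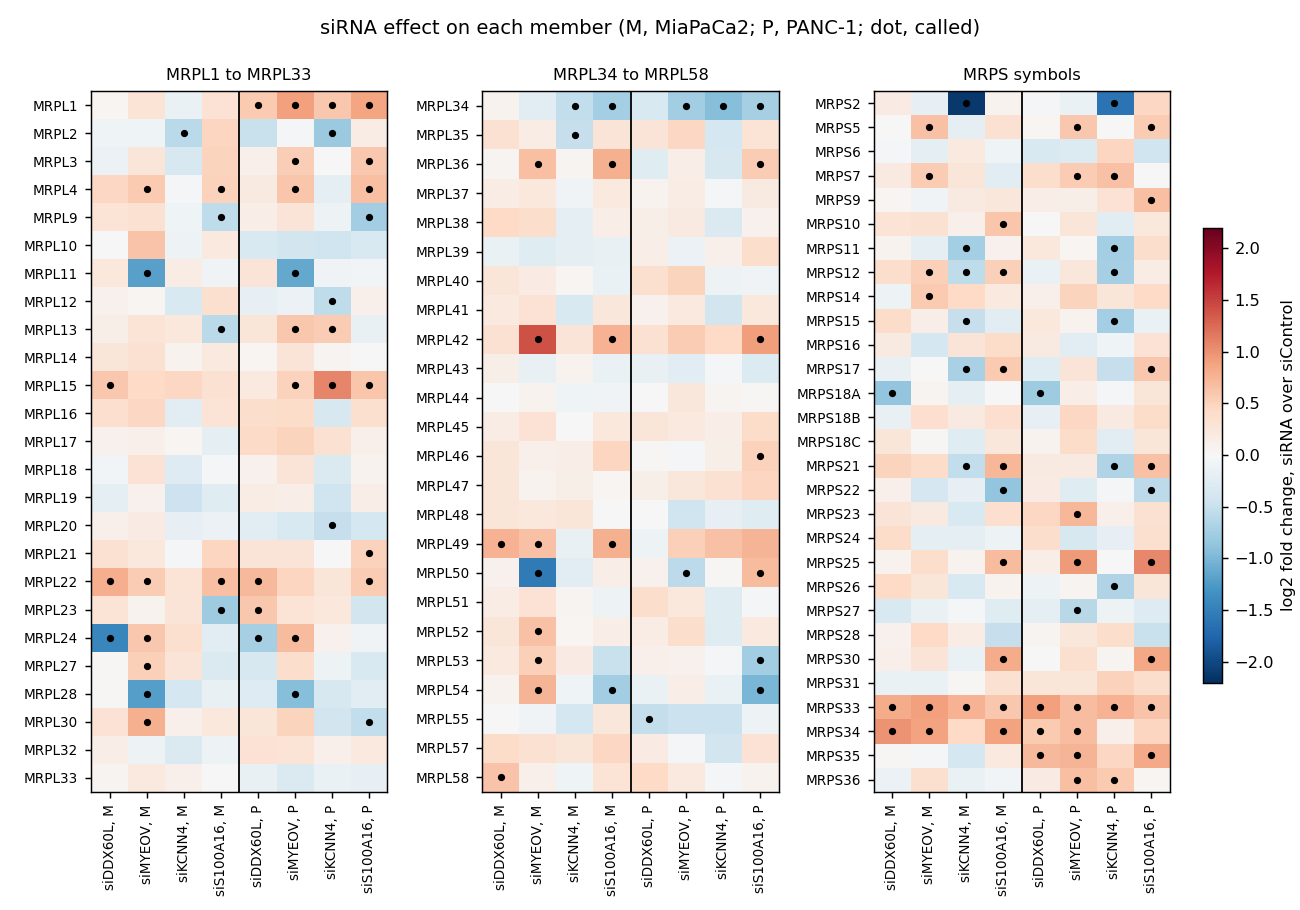
log2 fold change of each member, siRNA over siControl, in MiaPaCa2 (M, left 4 columns) and PANC-1 (P, right 4 columns), with a dot where the change was called. MRPS33 has a dot in all 8 columns, MRPS2 is darkest after siKCNN4 (-2.12 and -1.63), and 27 members carry no dot.

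Of the 16 small subunit proteins with bacterial counterparts, 6 fell and none rose after siKCNN4 in MiaPaCa2, where 7.23% of all genes fell. In PANC-1 5 fell and 1 rose, where 12.9% of all genes fell. Without the minimum fold, 5 of the 16 were higher and 7 lower after siKCNN4 in each line. Changes were above 0 for 7 of the 16 in MiaPaCa2 and 6 in PANC-1, so the group did not fall as a whole. After the other siRNAs none of the 16 was called lower in either line, although without the minimum fold 4 were lower after siMYEOV and 4 after siS100A16 in MiaPaCa2, and 3 after each of siDDX60L, siMYEOV and siS100A16 in PANC-1. The difference between the siRNAs was not tested for the group. Their median log2 fold change was -0.2 in each line, against 0.09 and 0.02 over all genes in MiaPaCa2 and PANC-1. MRPS2, on the solvent side of the subunit, showed the largest change of any member. It was at 25.7, 27.2 and 25.7 FPKM after siKCNN4 in MiaPaCa2, against 108, 124 and 119 FPKM under siControl, a log2 fold change of -2.12 ± 0.054 (SE, adjusted p = 3.6e-11). The PANC-1 libraries had 8.16, 7.98 and 7 FPKM, against 27.8, 24.1 and 25.8 FPKM (-1.63 ± 0.077, adjusted p = 2.9e-09). The siKCNN4 libraries thus held 22.4% and 29.8% of the siControl mean and did not overlap with it.

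MRPS12, in the decoding site, was at 25.8, 26.4 and 25 FPKM after siKCNN4 in MiaPaCa2, against 35.3, 39.5 and 40.6 FPKM under siControl (-0.56 ± 0.057, adjusted p = 3.8e-06). Its PANC-1 levels were 107, 106 and 99.7 FPKM, against 171, 187 and 165 FPKM (-0.73 ± 0.048, adjusted p = 5.1e-08). It rose in MiaPaCa2 after siMYEOV (0.53 ± 0.057) and siS100A16 (0.53 ± 0.057). Those calls were lost under median-of-ratios scaling (0.42 and 0.48) and without siControl replicate 1 (0.47 and 0.48), and the call after siS100A16 also without siS100A16 replicate 2. SARS2, the mitochondrial seryl-tRNA synthetase that starts head to head with MRPS12, changed by -0.24 ± 0.082 after siKCNN4 in MiaPaCa2 and fell by 0.69 on the log2 scale in PANC-1. SARS2 also fell in PANC-1 after siDDX60L (-0.7 ± 0.096) and siS100A16 (-1.02 ± 0.096). MRPS12 was not called in either comparison (-0.15 and 0.16).

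MRPS11, of the platform that holds messenger RNA, was at 3.82, 4.17 and 4.22 FPKM after siKCNN4 in MiaPaCa2, against 7.33, 7.83 and 7.4 FPKM (-0.75 ± 0.079). Its PANC-1 levels were 4.08, 3.78 and 3.83 FPKM, against 7.21, 7.23 and 7.14 FPKM (-0.74 ± 0.063). Its head-to-head neighbour MRPL46 did not pass the rule in either line (0.15 ± 0.1 and 0.13 ± 0.1). MRPS21 was at 19.9, 20.3 and 18 FPKM after siKCNN4 in MiaPaCa2, against 28.6, 28.4 and 28.8 FPKM (-0.54 ± 0.05), a call lost without siKCNN4 replicate 3 (-0.49). In PANC-1 MRPS21 was at 16.9, 15.6 and 16.3 FPKM, against 27, 25.6 and 27.1 FPKM. After siS100A16 it was higher in both lines, at 49.2, 48.5 and 46.5 FPKM in MiaPaCa2 (0.73 ± 0.05) and 41.1, 41.2 and 44.5 FPKM in PANC-1 (0.65). MRPS15 fell after siKCNN4 in PANC-1 (-0.74 ± 0.053). Its call in MiaPaCa2 (-0.51) was lost without siKCNN4 replicate 1 (-0.49), siKCNN4 replicate 3 (-0.48) or siControl replicate 3 (-0.48). MRPS17 fell after siKCNN4 in MiaPaCa2 (-0.71 ± 0.063) and rose after siS100A16 in both lines (0.57 in MiaPaCa2, and 0.59 or, under median-of-ratios scaling, 0.47 and not called in PANC-1). Its neighbour NIPSNAP2 changed by -0.41 ± 0.088 after siKCNN4 in MiaPaCa2 and fell there after siS100A16 (-0.82 ± 0.088), and it fell in PANC-1 after siKCNN4 (-0.98 ± 0.075) and siS100A16 (-0.67 ± 0.075). MRPS5 rose after siMYEOV in both lines (0.65 and 0.59), and so did MRPS7 (0.55 and 0.56), whose call in MiaPaCa2 was lost without siMYEOV replicate 2 (0.48) or siControl replicate 1 (0.46) and under median-of-ratios scaling (0.45). MIF4GD, which overlaps MRPS7, rose with it in PANC-1 after siMYEOV (0.61 ± 0.092) and siKCNN4 (0.53 ± 0.092). MIF4GD also rose where MRPS7 was not called, after siKCNN4 in MiaPaCa2 (0.81 ± 0.11) and siDDX60L in PANC-1 (0.78 ± 0.092). MRPS7 and MRPS33 were the small subunit members of the 6 that rose most after siKCNN4 in PANC-1 (0.65 ± 0.063 and 0.77 ± 0.11).

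Small subunit proteins found only in mitochondria included the member that moved in every comparison. MRPS33 was higher after all 4 siRNAs in both lines. Its 24 siRNA libraries lay between 8.32 and 13.9 FPKM, and its 6 siControl libraries between 4.9 and 7.34 FPKM, without overlap. In MiaPaCa2 the log2 fold changes were 0.81 ± 0.069 after siDDX60L, 0.91 ± 0.069 after siMYEOV, 0.76 ± 0.069 after siKCNN4 and 0.6 ± 0.069 after siS100A16. In PANC-1 they were 0.91 ± 0.11, 0.68 ± 0.11, 0.77 ± 0.11 and 0.63 ± 0.11, with adjusted p from 1.8e-05 to 0.00028. All 8 calls held under median-of-ratios scaling and without any single library. How many of all genes were called in all 8 comparisons was not counted. Since the comparisons of a line share their siControl libraries, the 4 rises in a line are not independent of each other. Set against each other instead, no pair of siRNAs differed in MRPS33 by the rule in either line (largest difference 0.32).

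MRPS34, which is mutated in inherited mitochondrial disease, was at 78.4, 86.6 and 84.6 FPKM after siDDX60L in MiaPaCa2, against 39.6, 43.3 and 42 FPKM (0.98 ± 0.058, adjusted p = 4e-08). It also rose there after siMYEOV (0.88 ± 0.058) and siS100A16 (0.88 ± 0.058). In PANC-1 it rose after siMYEOV (0.68) and after siDDX60L (0.57 ± 0.062, or 0.49 under median-of-ratios scaling). EME2, which overlaps MRPS34, changed by -0.37 to 0.07 in these comparisons and was not called. MRPS25 was at 16.8, 17.4 and 16.9 FPKM after siS100A16 in PANC-1, against 7.89, 7.62 and 7.4 FPKM (1.06 ± 0.068, adjusted p = 5e-08). MiaPaCa2 libraries had 18, 17.7 and 17.8 FPKM, against 10.6, 10.3 and 10.8 FPKM (0.7). It rose after siMYEOV in PANC-1 (0.94 ± 0.068). MRPS23 rose after siMYEOV in PANC-1 (0.73 ± 0.062), and MRPS35 rose there after siDDX60L (0.72 ± 0.2), siMYEOV (0.75 ± 0.2) and siS100A16 (0.83 ± 0.2). MRPS22, also mutated in inherited disease, was at 11.9, 12.1 and 12.4 FPKM after siS100A16 in MiaPaCa2, against 21.2, 22.9 and 24.4 FPKM (-0.86 ± 0.076, adjusted p = 9.6e-07). The PANC-1 libraries had 8.17, 9.42 and 9.45 FPKM, against 17.6, 12.2 and 12.3 FPKM (-0.57 ± 0.13), a call lost without siControl replicate 1 (-0.4). MRPS27 fell after siMYEOV in PANC-1 (-0.61 ± 0.1).

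**Figure D4:**
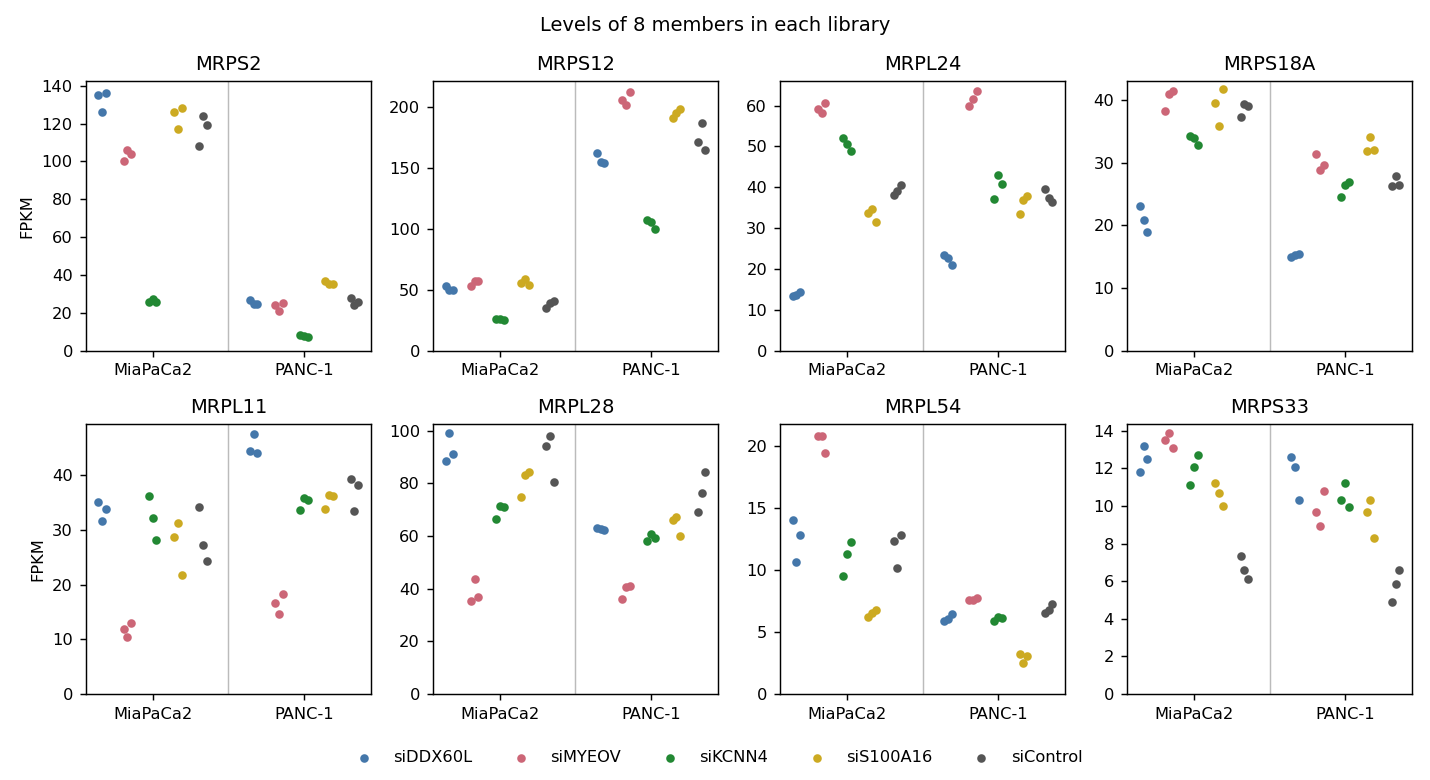
FPKM of 8 members in every library (points), by siRNA (colour, siControl in grey) within MiaPaCa2 and PANC-1. MRPS2 and MRPS12 are lowest after siKCNN4, MRPL24 and MRPS18A after siDDX60L, MRPL11 and MRPL28 after siMYEOV and MRPL54 after siS100A16, while MRPS33 under siControl lies below all siRNA libraries.

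Of the 29 large subunit proteins with bacterial counterparts, 2 rose and 1 fell after siDDX60L, 6 and 2 after siMYEOV, 0 and 3 after siKCNN4 and 3 and 4 after siS100A16 in MiaPaCa2. In PANC-1 the counts were 3 and 1, 6 and 3, 3 and 4 and 7 and 3 in the same order. The shares called were 10.3%, 27.6%, 10.3% and 24.1% in MiaPaCa2, against 16.1%, 26.7%, 23.2% and 22.1% of all genes. In PANC-1 they were 13.8%, 31%, 24.1% and 34.5%, against 17.5%, 29.4%, 26.7% and 25.4%. The differences from all genes were not tested. MRPL24, a protein of the outer surface near the tunnel exit in bacteria, was at 13.3, 13.7 and 14.4 FPKM after siDDX60L in MiaPaCa2, against 38, 39.1 and 40.6 FPKM (-1.44 ± 0.046, adjusted p = 2.6e-10). PANC-1 cells had 23.4, 22.6 and 21.1 FPKM, against 39.6, 37.3 and 36.5 FPKM (-0.73 ± 0.064, adjusted p = 1.3e-06). After siMYEOV it was at 59.2, 58.3 and 60.7 FPKM in MiaPaCa2 (0.59 ± 0.046) and 60, 61.5 and 63.5 FPKM in PANC-1 (0.69 ± 0.064). The rise in MiaPaCa2 was 0.48 under median-of-ratios scaling. MRPL24 was thus one of 10 members called in both directions.

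MRPL11 and MRPL28 fell after siMYEOV in both lines. MRPL11, at the base of the stalk where translation factors bind, was at 11.9, 10.5 and 13 FPKM in MiaPaCa2, against 34.2, 27.3 and 24.4 FPKM (-1.2 ± 0.14, adjusted p = 1.2e-05). PANC-1 cells had 16.7, 14.6 and 18.2 FPKM, against 39.4, 33.5 and 38.3 FPKM (-1.12 ± 0.076, adjusted p = 6.4e-08). MRPL28 was at 35.4, 43.7 and 36.8 FPKM in MiaPaCa2, against 94.3, 98.1 and 80.7 FPKM (-1.22 ± 0.088), and at 36, 40.6 and 41.2 FPKM in PANC-1, against 69, 76.3 and 84.3 FPKM (-0.94 ± 0.071). No library overlapped for either gene, and MRPL11 held 41.1% and 44.6% of its siControl mean. PELI3, which starts next to MRPL11 on the other strand, changed by 0.06 ± 0.22 after siMYEOV in MiaPaCa2 and by -0.65 ± 0.28 in PANC-1 (adjusted p = 0.062), without passing the rule.

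MRPL34 fell in 5 of the 8 comparisons and rose in none. In PANC-1 it fell after siMYEOV (-0.77 ± 0.12), siKCNN4 (-0.93 ± 0.12) and siS100A16 (-0.73 ± 0.12), and in MiaPaCa2 after siKCNN4 (-0.54 ± 0.12) and siS100A16 (-0.74 ± 0.12). ABHD8, which overlaps MRPL34, fell with it in 4 of these 5 comparisons (-0.66 ± 0.1 after siMYEOV and -1.18 ± 0.1 after siKCNN4 in PANC-1, -0.81 ± 0.067 after siKCNN4 and -0.51 ± 0.067 after siS100A16 in MiaPaCa2), and reads of the pair cannot be told apart. MRPL2, which lies at the peptidyl transferase centre, was at 20.1, 22.8 and 20.6 FPKM after siKCNN4 in MiaPaCa2, against 29.8, 33.3 and 35.1 FPKM (-0.6 ± 0.071), and fell in PANC-1 as well (-0.81 ± 0.092). MRPL9 fell after siS100A16 in PANC-1 (-0.77 ± 0.1) and in MiaPaCa2 (-0.56 ± 0.097), where the call was lost without siControl replicate 2 (-0.49). MRPL23 was lower after siS100A16 in MiaPaCa2 (-0.78 ± 0.092) and higher after siDDX60L in PANC-1 (0.59 ± 0.065). MRPL13 was lower after siS100A16 in MiaPaCa2 (-0.59 ± 0.073, and -0.5 without siS100A16 replicate 1) and higher after siKCNN4 in PANC-1 (0.55 ± 0.07).

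Others of this class rose. MRPL22, at the wall of the exit tunnel, was at 16.3, 17.9 and 15.7 FPKM after siDDX60L in MiaPaCa2, against 8.65, 9.39 and 9.18 FPKM (0.8 ± 0.06, adjusted p = 3.1e-07). The PANC-1 libraries had 9.26, 11.5 and 9.96 FPKM, against 5.77, 5.97 and 5.72 FPKM (0.72 ± 0.071). It also rose after siS100A16 in both lines (0.66 and 0.56), the change in PANC-1 being 0.45 under median-of-ratios scaling. MRPL36 rose after siMYEOV (0.66 ± 0.092) and siS100A16 (0.78 ± 0.092) in MiaPaCa2 and after siS100A16 in PANC-1 (0.56, and 0.44 under that scaling). NDUFS6, a neighbour of MRPL36, rose with it after siMYEOV in MiaPaCa2 (0.55). NDUFS6 also rose there after siDDX60L (0.6), where MRPL36 changed by 0.06 and was not called. MRPL15 was at 68.8, 69 and 70.6 FPKM after siKCNN4 in PANC-1, against 34.3, 31.6 and 31.5 FPKM (1.08 ± 0.061, adjusted p = 1.5e-08). It rose after siDDX60L in MiaPaCa2 (0.59 ± 0.05). MRPL1 rose after all 4 siRNAs in PANC-1, by 0.57 ± 0.12 after siDDX60L, 0.91 ± 0.12 after siMYEOV, 0.6 ± 0.12 after siKCNN4 and 0.87 ± 0.12 after siS100A16. Its call after siDDX60L was lost without siDDX60L replicate 3 (0.48) or siControl replicate 1 (0.44), and that after siKCNN4 without siControl replicate 1 (0.47). MRPL4 rose after siMYEOV in both lines (0.58 in MiaPaCa2, or 0.47 and not called under median-of-ratios scaling, and 0.61 in PANC-1) and after siS100A16 in PANC-1 (0.66). Its call after siS100A16 in MiaPaCa2 (0.5) was lost without siS100A16 replicate 3 (0.45), siControl replicate 1 (0.44) or siControl replicate 2 (0.5, just under the limit).

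Among the 20 large subunit proteins found only in mitochondria, the largest called changes were those of MRPL50, MRPL42 and MRPL54. MRPL50 was at 3.41, 3.91 and 3.16 FPKM after siMYEOV in MiaPaCa2, against 12.6, 11.8 and 12 FPKM (-1.55 ± 0.064, adjusted p = 8.7e-10). PANC-1 cells had 1.74, 1.96 and 1.52 FPKM, against 3.24, 2.86 and 3.11 FPKM (-0.57 ± 0.08, adjusted p = 4.6e-05). These are 28.8% and 56.7% of the siControl means, and the added 1 FPKM shrinks the log2 change at levels this low. ZNF189, which starts next to MRPL50 on the other strand, rose in both lines after siMYEOV (0.52 ± 0.095 and 0.58 ± 0.075). After siS100A16 MRPL50 rose in PANC-1 (0.7 ± 0.08).

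MRPL54 was at 6.18, 6.5 and 6.78 FPKM after siS100A16 in MiaPaCa2, against 12.3, 10.1 and 12.8 FPKM (-0.76 ± 0.11), and at 3.19, 2.49 and 3.09 FPKM in PANC-1, against 6.51, 6.77 and 7.26 FPKM (-1 ± 0.069, adjusted p = 9.7e-08). After siMYEOV in MiaPaCa2 it was at 20.8, 20.8 and 19.4 FPKM (0.75 ± 0.11). MRPL53 fell after siS100A16 in PANC-1 (-0.77 ± 0.15). MRPL58, the peptidyl-tRNA hydrolase, rose after siDDX60L in MiaPaCa2 (0.63 ± 0.078). MRPL42 rose after siMYEOV in MiaPaCa2, at 10.2, 21.3 and 21.1 FPKM, against 6.39, 6.14 and 4.7 FPKM (1.4 ± 0.26), and after siS100A16 in PANC-1 (0.92 ± 0.25). Its call after siS100A16 in MiaPaCa2 (0.77) was lost without siS100A16 replicate 1 (0.69), siS100A16 replicate 2 (0.57) or siControl replicate 3 (0.65). MRPL49 spread over 11 to 23.1 FPKM within siControl in MiaPaCa2. Its 3 calls there (0.76, 0.64 and 0.78 after siDDX60L, siMYEOV and siS100A16) were each lost without siControl replicate 3 (0.46, 0.34 and 0.48). FAU, a neighbour of MRPL49, rose with it after siDDX60L and siS100A16 (0.59 and 0.53). FAU also rose after siDDX60L in PANC-1 (0.69), where MRPL49 changed by -0.11 and was not called. MRPL30, of bacterial descent, spread over 15.2 to 30.4 FPKM within siControl in MiaPaCa2, and its call after siMYEOV (0.78 ± 0.24) was lost without siControl replicate 1 (0.49). Its call after siS100A16 in PANC-1 (-0.55 ± 0.22) rested on overlapping libraries and was lost without any one of 5 of the 6 libraries (-0.42 to -0.57). MRPL55 fell after siDDX60L in PANC-1 (-0.52 ± 0.15), a call lost without siDDX60L replicate 2 (-0.44), siDDX60L replicate 3 (-0.43) or siControl replicate 3 (-0.5).

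The 3 MRPS18 genes encode paralogs. MRPS18A is the one in the large subunit, and in the counts above MRPS18C stood among the MRPS members with bacterial counterparts and MRPS18B among those listed as found only in mitochondria. MRPS18A was at 23.1, 20.8 and 18.9 FPKM after siDDX60L in MiaPaCa2, against 37.3, 39.4 and 39.1 FPKM (-0.86 ± 0.07, adjusted p = 6.5e-07). The levels in PANC-1 were 14.9, 15.3 and 15.4 FPKM, against 26.3, 27.9 and 26.4 FPKM (-0.78 ± 0.049, adjusted p = 8e-08). MRPS18B changed by -0.16 ± 0.061 and -0.18 ± 0.061 and MRPS18C by 0.26 ± 0.11 and 0.07 ± 0.11 after siDDX60L in MiaPaCa2 and PANC-1, and neither gene was called after any siRNA. The difference between the paralogs was not tested. MRPS30, the other MRPS symbol in the large subunit, was at 79.8, 83.1 and 83.8 FPKM after siS100A16 in MiaPaCa2, against 44.8, 48.2 and 46.9 FPKM (0.81 ± 0.035, adjusted p = 1.8e-09). The levels in PANC-1 were 36.2, 37.8 and 38.9 FPKM, against 20.2, 22 and 19.1 FPKM (0.85 ± 0.069, adjusted p = 4.1e-07). MRPS36, of the dehydrogenase complex, rose in PANC-1 after siMYEOV (0.66) and after siKCNN4 (0.57 ± 0.087, and 0.49 without siControl replicate 2).

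The calls of the lines were then compared for each siRNA, beside the shares over all genes tested in both. After siDDX60L, 3 members rose in both lines, 50% of each line's own list, against 49.2% (MiaPaCa2) and 41.3% (PANC-1) when all genes were taken. The 2 that fell in both were 100% of the MiaPaCa2 list and 66.7% of the PANC-1 list, against 41.8% and 42.9% of all genes. After siMYEOV, 6 rose in both (35.3% and 42.9% of the lists, against 48.4% and 53% of all genes) and 3 fell in both (100% and 60%, against 58.6% and 44.2%). After siKCNN4, 1 rose in both (100% and 16.7%, against 44.3% and 51.1%) and 7 fell in both (77.8% and 70%, against 59.3% and 35.2%). After siS100A16, 9 rose in both (69.2% and 50%, against 61.6% and 44.6%) and 4 fell in both (66.7% and 66.7%, against 45.3% and 51.5%). The lists of members are short, and these differences from all genes were not tested. No member was called in opposite directions by the same siRNA. Across the 78 members the log2 fold changes of the lines had a Pearson r of 0.61, 0.68, 0.71 and 0.79 in the order siDDX60L, siMYEOV, siKCNN4, siS100A16, against 0.58, 0.65, 0.59 and 0.67 across all 11084 genes tested in both. These are descriptions across genes, which are not independent replicates.

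**Figure D5:**
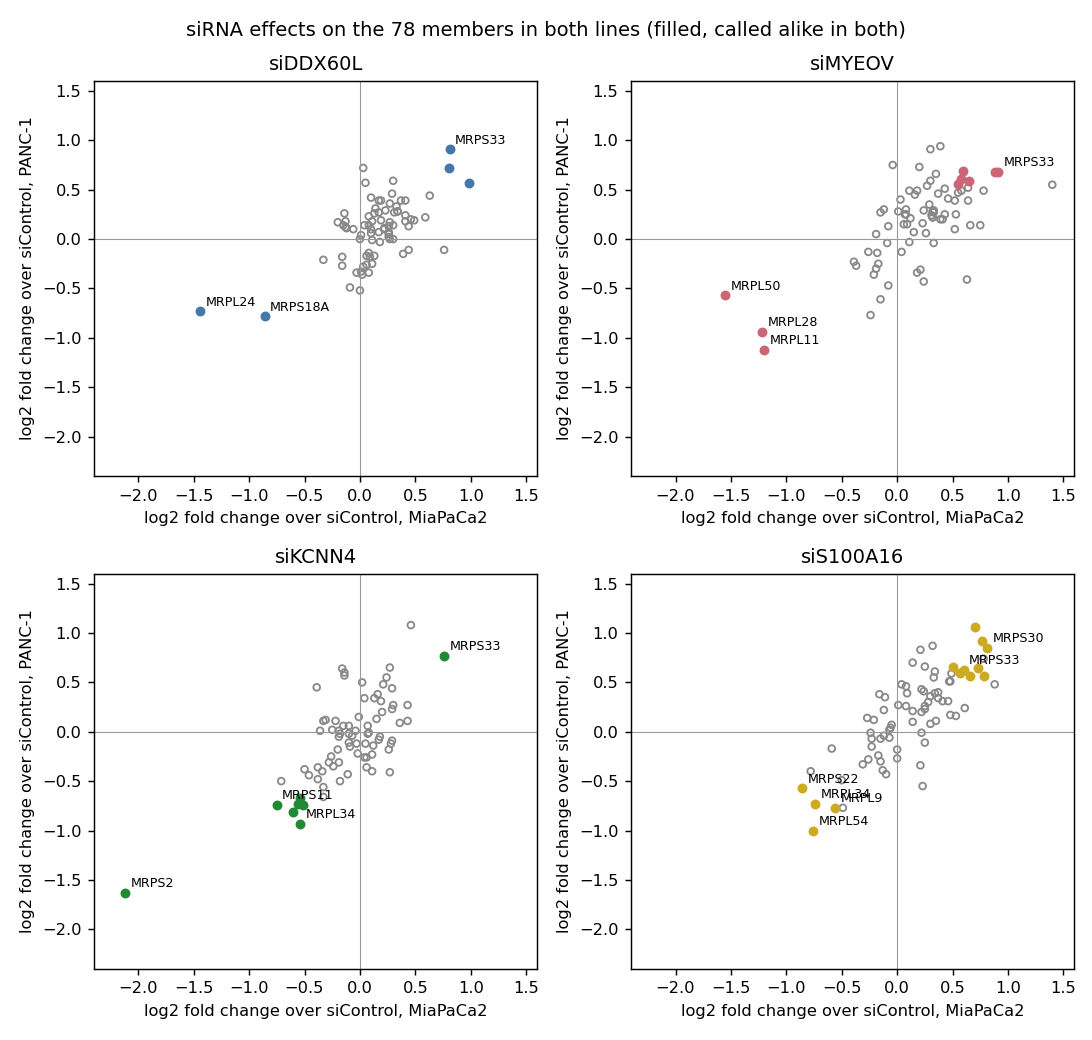
log2 fold change over siControl of each member in MiaPaCa2 (x) and PANC-1 (y), 1 panel per siRNA, with filled points where a member was called in the same direction in both lines. MRPS2 stands apart at the lower left after siKCNN4, and MRPS33 is filled at the upper right in all 4 panels.

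Each member called in both lines was also set against the other 3 siRNAs of the same line, without the siControl libraries. The members had been chosen for calls made with the same siRNA libraries, after the values were seen, so the differences are a description and no test. MRPL24 and MRPS18A were lower after siDDX60L in 6 of 6 comparisons, by -0.66 to -2.03 and -0.67 to -1.05, and 17.6% of the 329 genes that fell in both lines did the same. MRPL11 (-1.04 to -1.44), MRPL28 (-0.59 to -1.25) and MRPL50 (-0.59 to -1.69) were lower after siMYEOV in 6 of 6, as were 25.3% of 657 genes. MRPS2 (-1.48 to -2.29), MRPS11 (-0.56 to -1.13), MRPS12 (-0.59 to -1.09) and MRPS21 (-0.86 to -1.32) were 4 of 7 members lower after siKCNN4 in 6 of 6, as were 30% of 490 genes. After siS100A16 MRPL54 (-0.68 to -1.51) was 1 of 4 members lower in 6 of 6, as were 22.4% of 487 genes, and MRPS30 (0.5 to 0.96) was 1 of 9 members higher, as were 6.01% of 815 genes. MRPL34 passed in 2 of 6 after siKCNN4 and in 2 of 6 after siS100A16, and MRPL22 in 1 of 6 after siDDX60L and in 0 of 6 after siS100A16.

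The siRNA effects were also tested for a difference between the lines. After siDDX60L 5 members differed, against 9.98% of all genes, and MRPL24 fell less in PANC-1 (difference 0.71 ± 0.078, adjusted p = 5.4e-07). After siMYEOV 12 differed, against 15.4%. MRPL50 fell less in PANC-1 (0.98 ± 0.1, adjusted p = 8.4e-08), and the difference of MRPL10 (-1.04 ± 0.39) was kept without 4 of the 12 libraries and lost without any of the other 8. After siKCNN4 5 differed, against 15.2%, and MRPL15 rose more in PANC-1 (0.62 ± 0.078, adjusted p = 1.8e-06). MRPL1 (0.74 ± 0.14) and MRPS36 (0.71 ± 0.13) also had higher effects in PANC-1 after siKCNN4, and MRPL57 a lower one (-0.68 ± 0.091). After siS100A16 3 differed, against 11.8%. The share of higher among all calls moved under median-of-ratios scaling to 48.9% in place of 33.9% for siMYEOV, to 53.1% in place of 29.7% for siKCNN4 and to 49.3% in place of 67.9% for siS100A16, and the member counts became 7, 11 and 0.

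Other parts of the mitochondrial translation machinery were read from lists fixed by gene name. Of 24 assembly factors, RCC1L, which takes part in the assembly of the mitochondrial ribosome, rose after all 4 siRNAs in both lines, from 0.74 ± 0.052 (siKCNN4, PANC-1) to 1.53 ± 0.046 (siMYEOV, MiaPaCa2). The 4 rises in a line share their siControl libraries and are not independent, and how many genes rose in all comparisons was not counted. MPV17L2 fell after siDDX60L (-1.03 ± 0.063 in MiaPaCa2 and -0.74 ± 0.076 in PANC-1) and after siS100A16 (-0.62 ± 0.063 and -0.62 ± 0.076), and in MiaPaCa2 also after siKCNN4 (-0.58 ± 0.063). ERAL1, a chaperone of the small subunit RNA, fell after siS100A16 in both lines (-1.1 ± 0.17 and -1.14 ± 0.17). The 24 factors gave 5 higher and 1 lower after siDDX60L, 5 and 0 after siMYEOV, 2 and 2 after siKCNN4 and 5 and 2 after siS100A16 in MiaPaCa2, and 3 and 1, 4 and 1, 2 and 2 and 7 and 2 in PANC-1. The shares called were 25%, 20.8%, 16.7% and 29.2% in MiaPaCa2, against 16.1%, 26.7%, 23.2% and 22.1% of all genes. In PANC-1 they were 16.7%, 20.8%, 16.7% and 37.5%, against 17.5%, 29.4%, 26.7% and 25.4%. The differences from all genes were not tested.

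Of 15 translation factors, 0 rose and 1 fell after siDDX60L, 4 and 2 after siMYEOV, 1 and 0 after siKCNN4 and 6 and 2 after siS100A16 in MiaPaCa2, and 2 and 0, 3 and 0, 0 and 0 and 5 and 2 in PANC-1. The shares called after siDDX60L, siMYEOV and siKCNN4 were 6.67%, 40% and 6.67% in MiaPaCa2, against 16.1%, 26.7% and 23.2% of all genes. In PANC-1 they were 13.3%, 20% and 0%, against 17.5%, 29.4% and 26.7%. The shares called after siS100A16, 53.3% and 46.7%, stand beside 22.1% and 25.4% of all genes, and no difference from all genes was tested. Those higher after siS100A16 included the elongation GTPase GUF1 (0.97 ± 0.066 and 0.72 ± 0.09), the initiation factor MTIF2 (0.74 ± 0.067 and 0.9 ± 0.059) and LRPPRC, which stabilises mitochondrial mRNA (0.91 ± 0.13 and 0.86 ± 0.15). The elongation factor TUFM also rose after siS100A16 (0.69 ± 0.041 and 0.56 ± 0.044), and it fell after siMYEOV in MiaPaCa2 (-0.72 ± 0.041). Of 20 mitochondrial aminoacyl-tRNA synthetase genes, 2 rose and 0 fell in MiaPaCa2 after siDDX60L and 3 and 2 after siMYEOV. There 1 and 1 were called after siKCNN4 and 3 and 0 after siS100A16. In PANC-1 the counts were 2 and 2, 4 and 2, 2 and 4 and 6 and 1. The shares called were 10%, 25%, 10% and 15% in MiaPaCa2, against 16.1%, 26.7%, 23.2% and 22.1% of all genes. In PANC-1 they were 20%, 30%, 30% and 35%, against 17.5%, 29.4%, 26.7% and 25.4%. No difference was tested. MARS2 (methionine) fell after siKCNN4 in both lines (-0.92 ± 0.049 and -0.74 ± 0.057) and rose after siS100A16 in both (0.59 ± 0.049 and 0.8 ± 0.057). The 13 mRNAs encoded by mitochondrial DNA gave at most 3 calls in any siRNA comparison, each of them in PANC-1. There MT-ATP6 fell after siKCNN4 (-2.16 ± 0.39) and siS100A16 (-1.03 ± 0.39). Of 12 regulators of mitochondrial biogenesis, 11 were tested in each line. In MiaPaCa2 0, 1, 0 and 1 rose and 0, 0, 0 and 1 fell, in the order siDDX60L, siMYEOV, siKCNN4, siS100A16. In PANC-1 0, 2, 0 and 4 rose and 0, 1, 2 and 0 fell. The shares called were 0%, 9.09%, 0% and 18.2% in MiaPaCa2 and 0%, 27.3%, 18.2% and 36.4% in PANC-1. Their difference from all genes was not tested. Among them TFB2M, a transcription factor of mitochondrial DNA, rose after siS100A16 in both lines (0.88 ± 0.069 and 0.88 ± 0.063), and MYC fell in PANC-1 after siMYEOV (-1.76 ± 0.54) and siKCNN4 (-2.02 ± 0.54).

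Epithelial and ductal markers, and markers of other cell types, moved in the same libraries. Of 6 markers, 3 were tested in MiaPaCa2, where 1, 2, 2 and 1 fell after siDDX60L, siMYEOV, siKCNN4 and siS100A16 and none rose. In PANC-1 all 6 were tested, and 4, 4, 4 and 3 fell and 0, 0, 0 and 1 rose in the same order. In MiaPaCa2 their summed level was 1800 to 1900 FPKM after siDDX60L, 579 to 653 FPKM after siMYEOV, 1030 to 1110 FPKM after siKCNN4 and 2010 to 2050 FPKM after siS100A16, against 2020 to 2170 FPKM under siControl. In PANC-1 it was 1280 to 1360, 1010 to 1140, 1380 to 1510 and 2200 to 2330 FPKM in that order, against 3140 to 3390 FPKM under siControl. Of the leukocyte list, CD3E was listed at 0 in all 30 libraries and PTPRC in 15 MiaPaCa2 and 9 PANC-1 libraries, while CD68, a lysosomal protein of macrophages and other cells, carried most of its sum. That sum was 82.6 to 86.6 FPKM after siKCNN4 in PANC-1 and 51.3 to 56.1 FPKM after siMYEOV, against 35.8 to 39.6 FPKM under siControl, and 1 of 1 tested marker rose in both comparisons. In MiaPaCa2 it was 21.5 to 22.9 FPKM after siKCNN4 and 10.1 to 11.8 FPKM after siDDX60L, against 13.6 to 17.4 FPKM under siControl. Of 2 leukocyte markers tested there, 1, 1, 0 and 0 fell and 0, 0, 1 and 0 rose, in the order siDDX60L, siMYEOV, siKCNN4, siS100A16. The 1 endothelial marker tested in MiaPaCa2 fell after siDDX60L (-0.93) and siKCNN4 (-0.77) and was not called after the other siRNAs. The fibroblast sum in MiaPaCa2 was 18.4 to 20.1 FPKM after siS100A16 and 50.8 to 64.7 FPKM after the other siRNAs, against 72 to 77.7 FPKM under siControl. Its single markers did not all fall. Of 7 fibroblast markers, 2 were tested in each line. In MiaPaCa2 1, 1, 1 and 2 fell and 0, 0, 1 and 0 rose, in the order siDDX60L, siMYEOV, siKCNN4, siS100A16. After siKCNN4 there the 2 changes were 1.29 and -0.68. In PANC-1 1, 1, 0 and 1 fell and 0, 0, 1 and 0 rose (0.64 after siKCNN4). The mesenchymal sum, most of it VIM, spread widely within groups, at 1780 to 3690 FPKM after siDDX60L in MiaPaCa2 against 3300 to 3540 FPKM under siControl, and at 1810 to 3570 FPKM after siKCNN4 in PANC-1, against 2440 to 2550 FPKM under siControl. VIM fell after siS100A16 in both lines (-0.78 in MiaPaCa2 and -1.29 in PANC-1) and after siMYEOV in PANC-1 (-0.95). The part of these markers in the members' changes was not tested.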

How the data were processed

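Gene levels of 30 RNA-seq libraries (10 groups of 3) were used as deposited. Per the study's methods and the submitters' processing notes, the authors aligned single-end reads to GRCh37 with TopHat2 2.0.12 and deposited FPKM per gene with no replicate pooling. Which tool computed FPKM was not given in the sources used here, and the labels and the methods name different RNA extraction and library kits. The columns of the 30 libraries were the only measurements used. FPKM fixes neither depth nor counting error: the steps between low values did not give whole reads, so depth per library is unknown and no counting interval is given.

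The scale was log2(FPKM + 1), which understates the change of low genes. The minimum for a test was a mean of 1 FPKM in a line (11875 in MiaPaCa2, 12513 in PANC-1, 11084 in both) with limma 3.58.1 in R 4.3.3 (trend, moderated test), 5 groups per fit within a line and 10 for comparisons between lines. P-values were Benjamini-Hochberg adjusted over all genes tested. A gene was called at an adjusted p below 0.05 and a log2 change of at least 0.5. The fit was tested on simulated data. Members were chosen by symbol, and the lists and tests were chosen with earlier results of these data known. Named were, per siRNA and line, up to 6 called members each way, per line difference up to 5 each way, the 4 highest and 2 lowest levels per subunit, members called in both lines, the MRPS18 genes, the targets and up to 4 called genes of each other list. Some of these are given as counts only, and others outside the rule were added after their values were seen. The alternatives tried were another pseudocount, no filter, median-of-ratios scaling, fits of the groups compared alone, a replicate block, other call rules and leaving out each library. Deviations from group means correlated weakly between same-numbered siRNA and siControl libraries (from -0.055 to 0.16), and no pairing was assumed. Libraries of different siRNAs were not compared in this way. Promoter windows came from RefSeq (GRCh38.p14), with 69 of 78 members matched.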

Additional observations from a re-analysis of the deposited data

Results flagged for a closer look

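The effects of the siRNAs on 25 values of members differed between PANC-1 and MiaPaCa2 by limma's test of the difference itself (adjusted p below 0.05 and at least 0.5 on the log2 scale, PANC-1 minus MiaPaCa2). After siDDX60L the differences were 0.71 for MRPL24 and 0.52 for MRPL1, and -0.54 for MRPS12, -0.54 for MRPS26 and -0.53 for MRPL55. MRPL24 fell in both lines and less in PANC-1.

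After siMYEOV they were 0.98 for MRPL50, 0.79 for MRPS35, 0.61 for MRPL1, 0.55 for MRPS25 and 0.52 for MRPS23. On the negative side were MRPL10 (-1.04), MRPL48 (-0.67), MRPL54 (-0.61), MRPL34 (-0.53), MRPL36 (-0.52), MRPL33 (-0.52) and MRPL20 (-0.52). The difference of MRPL10 ranged from -1.37 to -0.71 with 1 library left out and was kept in 4 of 12 such fits. MRPL54 rose in MiaPaCa2 after siMYEOV and was not called in PANC-1.

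After siKCNN4 they were 0.83 for MRPS35, 0.74 for MRPL1, 0.71 for MRPS36, 0.62 for MRPL15 and -0.68 for MRPL57. After siS100A16 they were 0.56 for MRPL50, 0.55 for MRPL1 and 0.54 for MRPL39. MRPL1 stood in all 4 sets. Its difference after siKCNN4 held without any single library, but those after siDDX60L (0.39), siMYEOV (0.49) and siS100A16 (0.42) were lost without PANC-1 siControl replicate 1. Since the 4 differences use the same 6 siControl libraries, they are not independent. The share of members among these differences was near or below that of all genes. Median-of-ratios scaling removed the calls of MRPL1 after siDDX60L (0.49) and siS100A16 (0.47), of MRPL10 (-0.97), MRPL20 (-0.44), MRPL33 (-0.44), MRPL34 (-0.46) and MRPL36 (-0.45) after siMYEOV, and of MRPL39 (0.46) and MRPL50 (0.49) after siS100A16. With 1 library left out at a time, the differences of MRPL24 and MRPS26 after siDDX60L, MRPL50, MRPL54 and MRPL48 after siMYEOV, MRPL1, MRPS36, MRPL15 and MRPL57 after siKCNN4 and MRPL50 after siS100A16 were kept in every fit, and the other 15 were lost in at least 1.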

How the results depend on the processing

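Of 187 called values, none reversed under any alternative. Lost were 1 with a pseudocount of 0.1, 5 without the filter on low values, 9 with only the groups compared in the fit and 30 under median-of-ratios scaling. Leaving out 1 library at a time cost 50 of the 187 their call at least once. Under median-of-ratios scaling the number of members called was 11 for siMYEOV in MiaPaCa2 (20 in the report), and for the differences between the lines 7 for siMYEOV (12), 11 for siKCNN4 (5) and 0 for siS100A16 (3). The cause was not tested. In the order siDDX60L, siMYEOV, siKCNN4, siS100A16, dropping the minimum fold gave 36, 56, 42 and 51 in MiaPaCa2, 42, 57, 40 and 56 in PANC-1, 18, 26, 28 and 20 for the differences between the lines, and 66 for PANC-1 against MiaPaCa2. A minimum of 1 on the log2 scale gave 1, 4, 1 and 0 in MiaPaCa2, 0, 1, 2 and 2 in PANC-1, 0, 1, 0 and 0 for the differences and 13 between the lines. Leaving out 1 library gave 7 to 8, 16 to 21, 8 to 10 and 17 to 21 in MiaPaCa2, 7 to 12, 18 to 25, 16 to 18 and 21 to 25 in PANC-1, 3 to 5, 7 to 13, 4 to 6 and 2 to 4 for the differences and 35 to 37 between the lines. Depth is unknown, so the counting error of low members such as MRPL50 in PANC-1 cannot be given.

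Libraries share replicate numbers across groups, and the correlations of their deviations with those of siControl ran from -0.055 to 0.16. For siMYEOV in PANC-1 all same-numbered correlations were positive (0.064, 0.076 and 0.074), against a mean of -0.036 for other numbers. These values are small and do not settle whether libraries were paired. With the replicate number as a block the counts were 8, 19, 10 and 19 in MiaPaCa2, 9, 19, 16 and 24 in PANC-1, 5, 12, 5 and 3 for the differences and 37 between the lines. The block changed 1 call, MRPL49 after siMYEOV in MiaPaCa2 (0.64, adjusted p = 0.066).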

Other observations

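The cytosolic ribosomal proteins, which build the other ribosome of the cell, were read as a list of 82 symbols, of which 77 were tested in MiaPaCa2 and 78 in PANC-1. Many have near-identical pseudogenes, so their single values are uncertain. In MiaPaCa2, 6 rose and none fell after siDDX60L, 7 rose and 5 fell after siMYEOV, 4 rose and 1 fell after siKCNN4, and 3 rose and 9 fell after siS100A16. In PANC-1, 5 rose and 6 fell after siDDX60L, 5 rose and 14 fell after siMYEOV, 2 rose and 12 fell after siKCNN4, and 4 rose and 11 fell after siS100A16. The shares called were 7.79%, 15.6%, 6.49% and 15.6% in MiaPaCa2, against 16.1%, 26.7%, 23.2% and 22.1% of all genes. In PANC-1 they were 14.1%, 24.4%, 17.9% and 19.2%, against 17.5%, 29.4%, 26.7% and 25.4%. The shares of the list were thus below the background in every comparison. Their median log2 fold changes were 0.26, 0.05, 0.03 and -0.02 in MiaPaCa2 and 0.09, -0.16, -0.21 and -0.13 in PANC-1, in the order siDDX60L, siMYEOV, siKCNN4, siS100A16. The mitochondrial members had medians of 0.16, 0.25, -0.08 and 0.21 and of 0.13, 0.25, -0.05 and 0.23 in the same order. The difference between the 2 lists was not tested.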
